A study of Mus musculus with 6 samples.

Results

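The genes described here were 10 cyclins and cyclin-dependent kinases (CDKs) that drive the mitotic cell cycle, out of 21951 protein-coding genes in the annotation. They were chosen by name as the D-type cyclins *Ccnd1*, *Ccnd2* and *Ccnd3*, the E-type cyclins *Ccne1* and *Ccne2*, the A-type and B-type cyclins *Ccna2* and *Ccnb1*, and the kinases *Cdk2*, *Cdk4* and *Cdk6*. Trimethylation of lysine 4 on histone H3 (H3K4me3) was profiled by ChIP-seq in 2 mouse lymphoid progenitor lines, without any treatment. Scid.adh.2C2, which stands for the T cell progenitor, was cloned out of Scid.adh cells, and these grew out of a thymic tumor that arose spontaneously in a CB17-Prkdc scid mouse. 230-238 is a B cell progenitor line transformed with Abelson virus. Each line was represented by 2 H3K4me3 ChIP libraries and 1 input library. Both lines are transformed and permanently dividing, and each is a single line, so that a difference between them may belong to the lineage, to the stage or to the individual tumor, which cannot be told apart here.

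D-type cyclins are made in response to growth signals and activate CDK4 and CDK6, which start the phosphorylation of the retinoblastoma protein. This releases E2F transcription factors, which in turn activate the E-type cyclins, the partners of CDK2 at the entry into S phase. Cyclin A2 follows through S phase and G2, and cyclin B1 with CDK1 brings the cell into mitosis. In developing lymphocytes the D-type cyclins are used selectively. Cyclin D3 is known to be required for the expansion of immature thymocytes that have passed beta-selection and of pre-B cells after pre-B cell receptor signaling. H3K4me3 covers the nucleosomes that flank the start of active and poised genes, and wide H3K4me3 domains are often found at genes that define the identity of a cell.

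The authors called peaks with MACS2 and combined both replicates of a line into 1 list by the irreproducible discovery rate (IDR). Single replicates and their read depth could therefore not be seen in the lists, and no test between the lines was possible. All differences below are descriptions of 2 lists. A gene was called marked if a peak reached within 2500 bp of any annotated transcription start site (TSS) of it. A gene without a mark is one for which the list used here held no such peak. Whether the lists used here hold every called peak was not tested, and the reads were not used. The level of a promoter was its highest fold enrichment over the local background, and its domain was the stretch of peaks joined across gaps of up to 1000 bp. The labels of the lines were in accord with the marker genes, since Scid.adh.2C2 carried a mark at all 12 markers of the T lineage and at 2 of 12 of the B lineage, and 230-238 at 4 and at all 12. Of 6 markers of other blood cells 2 were marked in each line, *Spi1* and *Klf1*.

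Of the 10 members, 9 were marked in Scid.adh.2C2, where 45.5% of all protein-coding genes were marked. In 230-238 all 10 were marked, against a background of 48.2%. Both lines marked 9 members (background 42.2%). The remaining gene was *Ccnd2*, marked in 230-238 only, as were 5.96% of all protein-coding genes, whereas 0 members had a mark confined to Scid.adh.2C2 (background 3.28%). The levels of the members were spread over the range of all marked promoters. In Scid.adh.2C2 they ran from 18.4-fold to 37.4-fold with a median of 31.4, beside a median of 27.1 over all marked protein-coding promoters. In 230-238 they ran from 14.9-fold to 29.3-fold with a median of 22.4, beside a median of 21.7. The domains were wide in 230-238, with a median of 4730 bp for the members and 2663 bp for all marked promoters, and 5 of 10 members lay above the 90th percentile of width, where 10.0% of marked genes lie by construction. In Scid.adh.2C2 the medians were 2964 bp and 2295 bp, and 2 of 9 members lay above that percentile (background 10.0%).

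**Figure D1:**
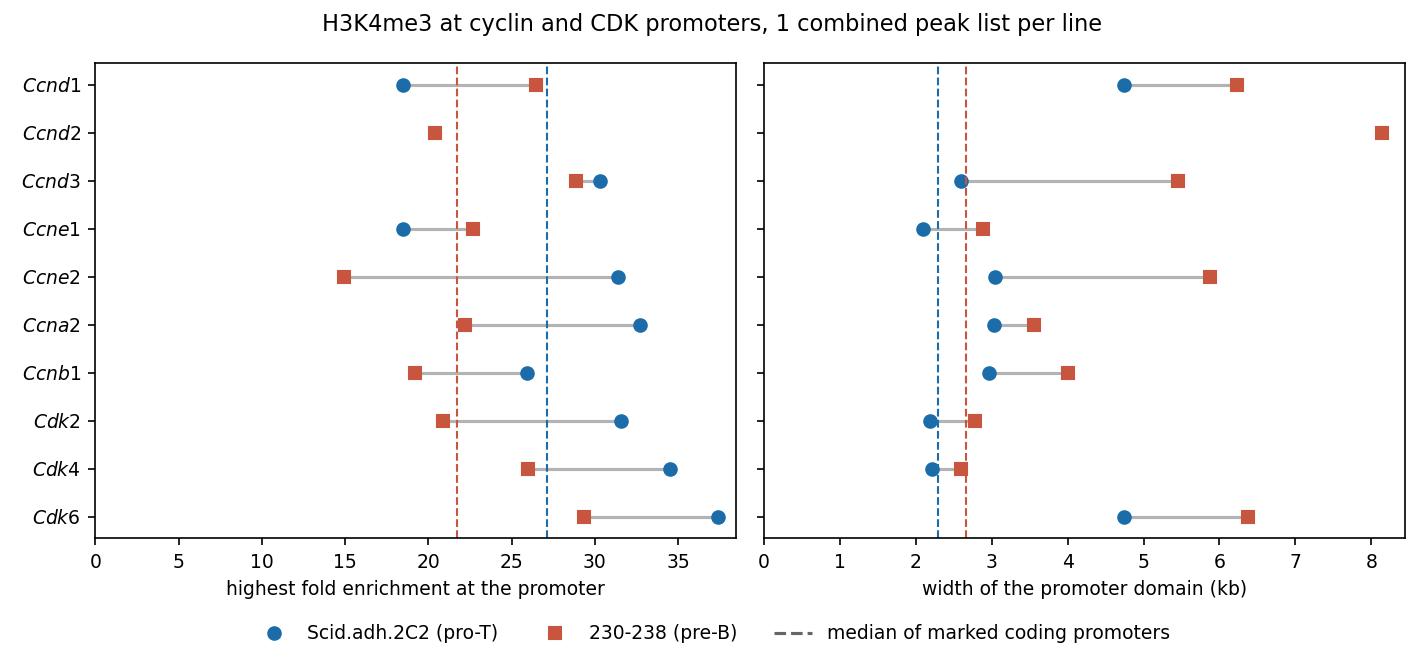
Highest fold enrichment at the promoter (left, fold over background) and width of the promoter domain (right, kb) for the 10 members, with 1 value per line from the combined list (blue circles Scid.adh.2C2, red squares 230-238). Dashed lines are the medians of all marked protein-coding promoters of each list, 27.1-fold and 2295 bp in Scid.adh.2C2 and 21.7-fold and 2663 bp in 230-238. *Ccnd2* has no value in Scid.adh.2C2, and each of the other 9 domains, with peaks joined across up to 1000 bp, was wider in 230-238, which turned at *Ccnb1* and *Cdk4* when peaks were joined across up to 3000 bp.

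The D-type cyclins differed from each other in the pattern over the lines. *Ccnd1*, the cyclin D of many cells outside the blood, was marked in both lines, with the higher level in 230-238. *Ccnd2*, a cyclin D of growth factor-driven lymphocytes, was marked in 230-238 only. *Ccnd3*, the cyclin D of thymocyte and pre-B cell expansion, was marked in both lines at 2 separate groups of starts, and its domains at both groups were wider in 230-238.

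*Ccnd1* (ENSMUSG00000070348.5) lies at chr7:144929931-144939925 of GRCm38 on the minus strand, with 3 annotated TSSs. In Scid.adh.2C2 a single peak of 4741 bp covered all 3 TSSs at 18.4-fold, reaching from 2004 bp before the first TSS to 2736 bp after it. In 230-238 the peak was 6233 bp long at 26.5-fold, and reached from 3923 bp before the first TSS to 2309 bp after it. Both summits were in an exon, 344 bp and 83 bp behind the nearest TSS, which was not the same TSS in the 2 lines. From the first TSS they lay 400 bp behind in Scid.adh.2C2 and 1811 bp behind in 230-238. Among all marked protein-coding promoters the level stood at percentile 14.8 in Scid.adh.2C2 and at percentile 80.4 in 230-238, whereas the width stood at percentile 95.2 and 95.5. The promoter thus carried a wide domain in both lines and, for its list, a low level in Scid.adh.2C2. The only other peak within 100 kb of the gene in either line was at the promoter of *LTO1*, which was listed at 20.3-fold in Scid.adh.2C2 and at 36.8-fold in 230-238, the latter at rank 16 of 19604 peaks.

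*Ccnd2* (ENSMUSG00000000184.12) lies at chr6:127125162-127152193 on the minus strand, with 7 annotated TSSs. The list of Scid.adh.2C2 held no peak at its promoter or in the gene, and the nearest peak was 29169 bp from a TSS. In 230-238 a pair of peaks lay at the start. The peak at chr6:127147928-127152548 was 4621 bp long at 12.2-fold and covered 5 of the 7 TSSs. Its summit was in an exon, and it also reached the promoter of the noncoding gene 9330179D12Rik. The peak at chr6:127152693-127156065, before the first TSS, was 3373 bp long at 20.4-fold. Together they made a domain of 8138 bp, the widest among the members and at percentile 98.4 of all marked promoters of the list, while the level stood at percentile 41.1. Neither peak overlapped a peak of Scid.adh.2C2.

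The surroundings of *Ccnd2* were covered in both lists. Within 500 kb of the gene lay 12 other protein-coding genes, of which 6 were marked in each line, and 10 peaks in Scid.adh.2C2 against 20 in 230-238. The nearest peaks of Scid.adh.2C2 were those at the promoter of *Tigar*, behind the 3′ end of *Ccnd2*, at 22.8-fold and 8.07-fold, and the promoter of *Tigar* was listed at 23.9-fold in 230-238. Within 100 kb, 230-238 had 7 peaks, of which 5 had no partner in Scid.adh.2C2. Beside the promoter pair these were a peak 10624 bp before the first TSS (8.88-fold), another 88357 bp before it (9.76-fold) and one 117465 bp behind it (11.9-fold), none of them at an annotated promoter. A peak with its summit 94066 bp before the first TSS in Scid.adh.2C2 (17.9-fold) was also present in 230-238 (5.99-fold).

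*Ccnd3* (ENSMUSG00000034165.16) lies at chr17:47505051-47599691 on the plus strand. Its 19 annotated TSSs fall into a group at the 5′ end of the gene and a group near its 3′ part. Each line had 5 promoter peaks, and each of these overlapped a peak of the other line. At the 5′ group the peak over the TSSs was listed at 22.0-fold with 2205 bp in Scid.adh.2C2 and at 20.7-fold with 1709 bp in 230-238. A peak in the first part of the gene followed it, at 11.8-fold with 1119 bp and at 10.6-fold with 2499 bp. With peaks joined across up to 1000 bp, it formed a shared domain with the peak over the TSSs in 230-238 but not in Scid.adh.2C2. The joined 5′ domain was thus also wider in 230-238, though the peak over the TSSs alone was not. A further peak before the gene was listed at 30.3-fold and 25.4-fold. Both this peak and the peak over the 5′ TSSs belonged also to the promoter of the neighboring gene *Taf8*, in each line. At the internal group the main peak was listed at 29.7-fold with 1943 bp in Scid.adh.2C2 and at 28.9-fold with 4573 bp in 230-238, and a short peak stood in front of it in both lines, at 16.2-fold and 13.4-fold.

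The highest value of *Ccnd3* in Scid.adh.2C2 was thus that of the peak before the gene, shared with *Taf8*, and the highest in 230-238 was that of the internal start. Without the peaks shared with *Taf8*, a choice made after the values were seen, the centred log2 level difference was -0.28 in place of -0.25. This choice also left out the peak over the 5′ TSSs, so that the main internal peaks were compared (29.7-fold and 28.9-fold). The widest domain lay at the internal starts in both lines, with 2598 bp in Scid.adh.2C2 and 5459 bp in 230-238, a ratio of 2.10. In 230-238 it covered 3 internal TSSs that had no peak in Scid.adh.2C2, so that 17 of 19 TSSs were under a peak in 230-238 and 14 in Scid.adh.2C2. Inside the gene and outside these promoters, both lines had an intronic peak at 10.4-fold and 12.3-fold. Of the 3 intronic peaks of 230-238, 2 had no partner in the other line (16.8-fold and 13.2-fold), as had 1 of the 2 in Scid.adh.2C2 (6.23-fold).

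**Figure D2:**
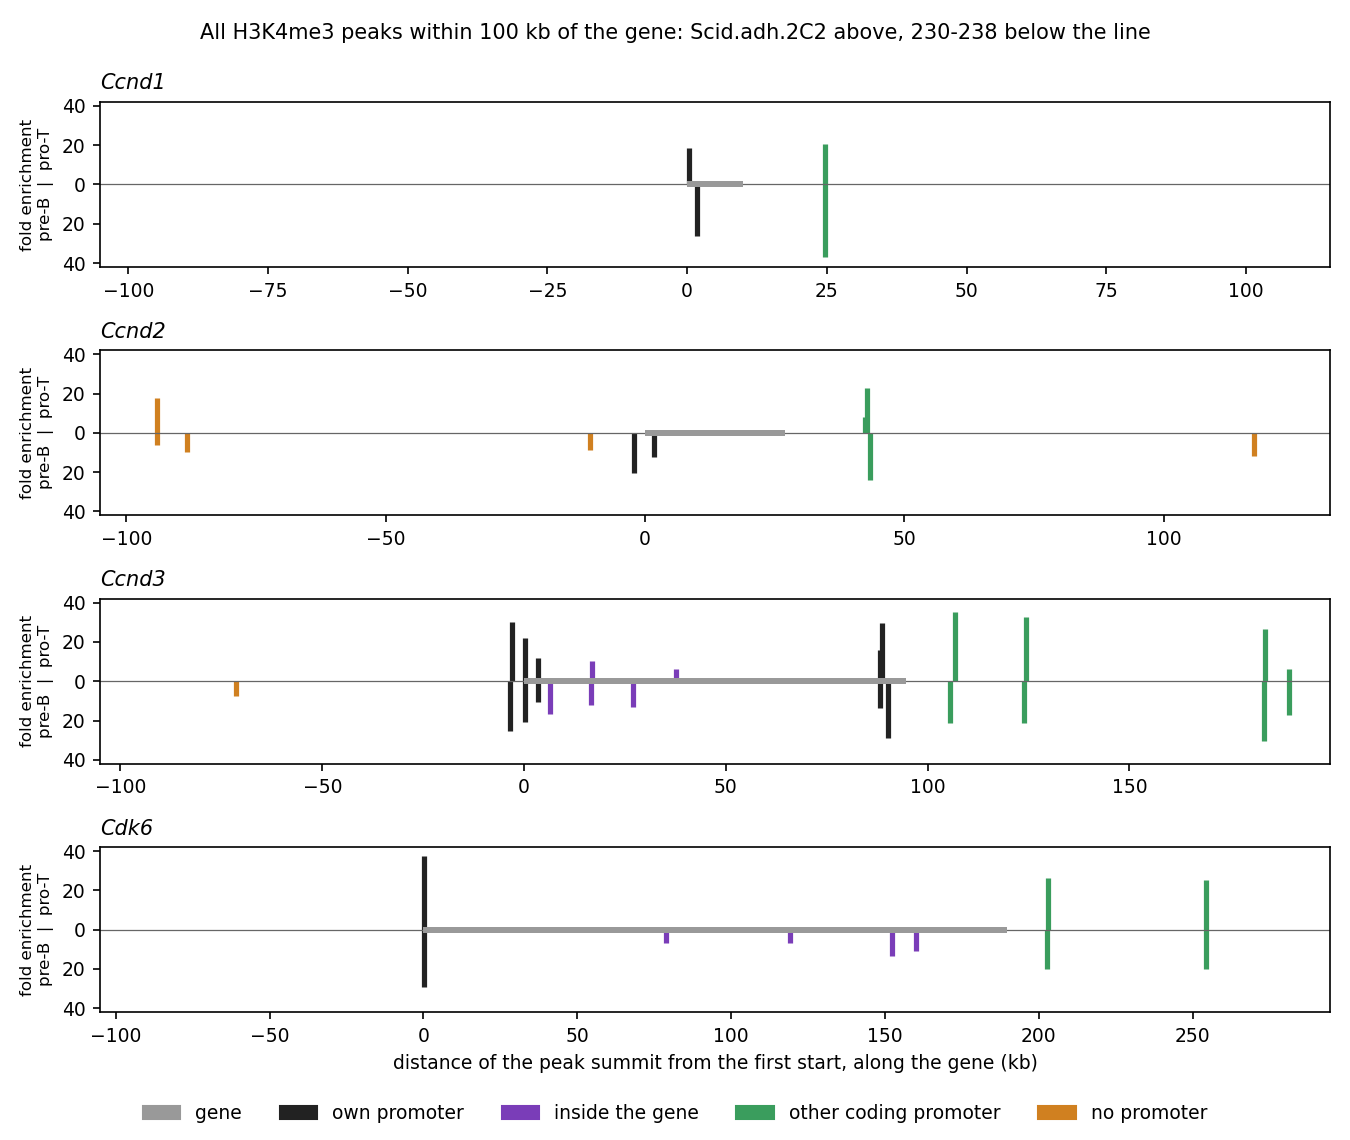
All peaks from 100 kb before to 100 kb after *Ccnd1*, *Ccnd2*, *Ccnd3* and *Cdk6*, drawn at the distance of the summit from the first TSS along the gene (kb), with the fold enrichment as the length of the line, upward for Scid.adh.2C2 and downward for 230-238. Colors give the class of the peak (black own promoter, purple inside the gene, green promoter of another coding gene, orange no promoter). *Ccnd2* has promoter peaks below the line only, and the 4 intronic peaks of *Cdk6* are all below the line.

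The E-type cyclins, which activate CDK2 at the start of S phase, went in opposite directions at their highest promoter peaks. *Ccne1* (ENSMUSG00000002068.16, chr7:38097984-38107534, minus strand) had a pair of peaks in each line. The peak inside the gene was listed at 18.4-fold in Scid.adh.2C2, the same deposited value as at *Ccnd1*, and at 22.7-fold in 230-238. The peak before the TSS went the other way, at 16.9-fold in Scid.adh.2C2 and 10.3-fold in 230-238. *Ccne2* (ENSMUSG00000028212.16, chr4:11191351-11204779, plus strand) had a single peak over all of its 7 TSSs in each line. It was 3038 bp long at 31.4-fold in Scid.adh.2C2, and 5878 bp long at 14.9-fold in 230-238, where it was the member with the lowest level. The wide peak of 230-238 stood at percentile 94.6 of domain width and at percentile 14.4 of level. Both *Ccne2* summits lay before the gene, 676 bp and 1279 bp from the nearest TSS.

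The cyclins of S phase, G2 and mitosis had level differences below 1.5-fold after centring, 0.24 for *Ccna2* and 0.11 for *Ccnb1* on the log2 scale. *Ccna2* (ENSMUSG00000027715.9, chr3:36564865-36572150, minus strand), the cyclin of S phase and G2, had a peak of 2256 bp inside the gene at 32.7-fold in Scid.adh.2C2 and one of 2680 bp at 22.2-fold in 230-238. A short peak before the TSS was listed at 13.2-fold and 20.1-fold, and was thus nearly as high as its partner in 230-238. *Ccnb1* (ENSMUSG00000041431.16, chr13:100778650-100786570, minus strand), the cyclin of entry into mitosis, had 1 peak of 2964 bp at 25.9-fold in Scid.adh.2C2. In 230-238 it had a peak of 3288 bp at 19.2-fold and a second of 587 bp at 14.3-fold before the TSS. The *Ccnb1* summits inside the gene fell in an intron, 316 bp and 348 bp behind the nearest TSS.

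The member with the highest level in each list was a kinase. *Cdk6* (ENSMUSG00000040274.11, chr5:3341485-3531008, plus strand), a partner of the D-type cyclins that is prominent in blood cells, was listed at 37.4-fold and percentile 92.2 in Scid.adh.2C2 and 29.3-fold and percentile 92.1 in 230-238. Its promoter peak was also wide in both lines, with 4740 bp and 6380 bp, at percentile 95.2 and 95.8. The summits lay 73 bp and 84 bp behind the first TSS, in an exon. Inside the 189524 bp of the gene, 230-238 had 4 intronic peaks, at 7.01-fold, 6.99-fold, 13.2-fold and 11.0-fold, and Scid.adh.2C2 had none. None of the 4 lay at an annotated protein-coding promoter, and 1 of them lay at the noncoding gene Gm42435.

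*Cdk4* (ENSMUSG00000006728.12, chr10:127063534-127067920, plus strand), the other partner of the D-type cyclins, had a main peak of 1608 bp at 34.5-fold in Scid.adh.2C2 and of 1662 bp at 26.0-fold in 230-238. A short peak before the TSS was listed at 8.76-fold and 5.33-fold, and the latter had an IDR score of 921 where all other member peaks had the highest score of 1000. *Cdk2* (ENSMUSG00000025358.16, chr10:128697939-128705031, minus strand), the partner of cyclins E and A, had 1 peak in each line, with 2194 bp at 31.6-fold and 2779 bp at 20.9-fold. This *Cdk2* peak also reached the promoter of *Pmel*, a pigment cell gene. The domains of *Cdk2* and *Cdk4* stood between percentile 44.5 and 54.2 in both lists, near the middle of all marked promoters.

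**Figure D3:**
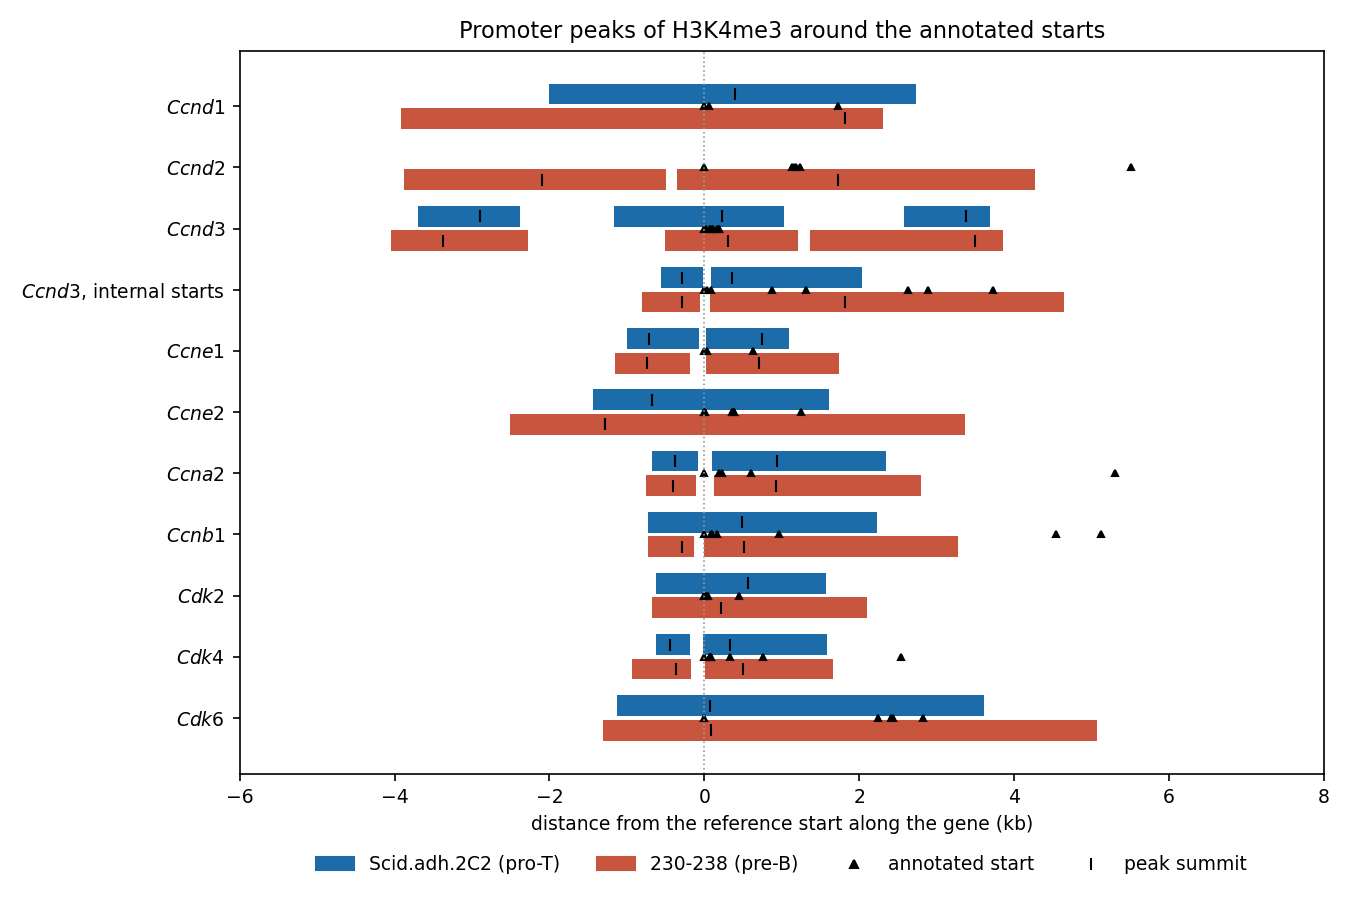
Extent of the promoter peaks (bars, blue Scid.adh.2C2, red 230-238), their summits (ticks) and the annotated starts (triangles), against the distance from the first start along the gene in kb, with a separate row for the internal starts of *Ccnd3*. A gap at or beside a start separates 2 peaks at the internal *Ccnd3* start, *Ccne1*, *Ccna2* and *Cdk4* in both lines and at *Ccnb1* in 230-238.

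At several members the mark was interrupted at or beside an annotated start. A gap of at most 1000 bp between neighboring peaks within 200 bp of a TSS, a rule set after the peaks were seen, was found at 4 of 9 marked members in Scid.adh.2C2 (*Ccnd3*, *Ccne1*, *Ccna2* and *Cdk4*) and at the same 4 genes and *Ccnb1*, 5 of 10, in 230-238. Among all marked protein-coding genes the shares were 13.1% and 18.8%, not matched for the number of annotated TSSs per gene. The gaps of the members were short, from 93 bp at *Ccne1* to 180 bp at *Ccna2* in Scid.adh.2C2, and from 125 bp at *Ccnb1* to 236 bp at *Ccna2* in 230-238. At *Ccna2* the gap held 1 annotated TSS in both lines, at *Ccne1* likewise, and at the internal start of *Ccnd3* it held 2. At *Cdk4* it held 1 in 230-238 and lay 20 bp from the nearest TSS in Scid.adh.2C2. The *Cdk4* gap rested on the short peak before the TSS, at 8.76-fold in Scid.adh.2C2 and 5.33-fold in 230-238. With peaks of at least 10-fold this gap was absent in both lines. The gap of *Ccnb1* in 230-238 lay 10 bp from the nearest TSS. As background, the start of an active gene usually lies in a stretch without a positioned nucleosome, so that a histone mark flanks it on both sides.

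The sequences around these starts are shown because the gap in the mark falls on or beside them, with the 5′ start of *Ccnd3*, which had no such gap, for comparison. RefSeq windows of 300 bases, from 250 before to 50 after the start on GRCm38.p6, were given for 6 of the 10 members in 7 windows. *Ccnd1*, *Ccnd2*, *Ccne2* and *Ccna2* had no window. Capitals mark the GC box GGGCGG in *Ccne1*, the CCAAT box in *Ccnb1*, both of these in the *Ccnd3* windows, and the E-box CACGTG, the site letters of MYC-family factors, in *Cdk4*. Other matches stay in lower case, such as the GC boxes of *Ccnb1* and *Cdk4*. All motifs are searched on both strands, and each sequence is printed 5′ to 3′ on the strand of the gene.
Ccnd3, 5′ start (chr17:47504801-47505100, plus strand): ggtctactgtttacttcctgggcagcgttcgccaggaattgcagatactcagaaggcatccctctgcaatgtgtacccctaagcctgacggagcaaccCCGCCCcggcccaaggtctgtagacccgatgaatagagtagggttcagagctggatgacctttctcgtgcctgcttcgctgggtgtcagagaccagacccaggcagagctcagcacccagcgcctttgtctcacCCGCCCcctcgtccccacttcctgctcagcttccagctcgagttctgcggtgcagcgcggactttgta
Ccnd3, internal start (chr17:47593217-47593516, plus strand): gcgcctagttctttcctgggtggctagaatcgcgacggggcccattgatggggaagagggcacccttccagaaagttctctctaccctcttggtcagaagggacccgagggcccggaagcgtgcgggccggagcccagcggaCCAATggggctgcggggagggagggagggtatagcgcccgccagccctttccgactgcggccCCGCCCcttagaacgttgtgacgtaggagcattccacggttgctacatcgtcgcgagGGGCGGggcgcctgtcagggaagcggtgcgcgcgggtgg
Ccne1 (chr7:38107441-38107740, minus strand): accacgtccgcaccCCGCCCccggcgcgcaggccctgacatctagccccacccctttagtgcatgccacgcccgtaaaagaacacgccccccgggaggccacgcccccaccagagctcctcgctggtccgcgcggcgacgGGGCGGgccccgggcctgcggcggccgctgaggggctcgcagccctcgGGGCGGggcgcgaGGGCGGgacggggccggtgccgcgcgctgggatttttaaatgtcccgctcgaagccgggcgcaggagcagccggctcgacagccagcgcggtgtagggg
Ccnb1 (chr13:100786437-100786736, minus strand): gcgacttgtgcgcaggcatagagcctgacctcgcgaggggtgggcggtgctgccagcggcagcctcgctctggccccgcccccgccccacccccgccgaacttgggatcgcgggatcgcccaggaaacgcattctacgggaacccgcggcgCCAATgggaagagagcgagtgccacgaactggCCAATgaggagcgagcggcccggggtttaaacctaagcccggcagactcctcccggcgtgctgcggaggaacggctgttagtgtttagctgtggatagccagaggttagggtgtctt
Cdk4 (chr10:127063285-127063584, plus strand): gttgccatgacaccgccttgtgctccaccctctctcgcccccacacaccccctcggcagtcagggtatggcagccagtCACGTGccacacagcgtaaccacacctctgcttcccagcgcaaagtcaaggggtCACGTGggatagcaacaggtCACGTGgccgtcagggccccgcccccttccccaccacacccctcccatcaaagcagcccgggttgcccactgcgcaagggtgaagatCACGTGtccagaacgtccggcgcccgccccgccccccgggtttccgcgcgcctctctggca

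The *Cdk4* window held 4 E-boxes CACGTG, with their first bases 172, 118, 98 and 11 bases before the start. Of 21263 windows of protein-coding genes 7.84% held at least 1 such E-box and 5 held 4 or more. All 4 lay inside the gap of 230-238, and 3 of the 4 inside the gap of Scid.adh.2C2. This gap was bounded by a weak peak, at 8.76-fold in Scid.adh.2C2 and 5.33-fold in 230-238, and was absent with peaks of at least 10-fold. The *Cdk4* window also held 3 GC boxes, of which 1 lay inside the gap in both lines. At least 3 GC boxes were found in 14.7% of all windows. The *Ccne1* window had a GC content of 76.0% (percentile 96.0 of all windows, median 56.3%) and 4 GC boxes, of which 3 lay inside the gap in both lines. At least 4 GC boxes were found in 7.53% of all windows. The *Ccnb1* window held 2 CCAAT boxes, where 12.8% of all windows held 2 or more, and 3 GC boxes, which all lay in its gap in 230-238. The internal *Ccnd3* window held 1 CCAAT box and 2 GC boxes, and both GC boxes lay in the gap of each line. It was richer in CpG, with an observed over expected ratio of 0.85 against 0.58 in the window at the 5′ end of the gene (median of all windows 0.57), and the latter held 2 GC boxes and no CCAAT box.

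The other windows were searched in the same way. *Cdk2* held 6 GC boxes, 1 CCAAT box and 1 match to the E2F letters TTTNNCGC, which 6.24% of all windows held. *Cdk6*, whose RefSeq start lies behind the first TSS of the annotation, held 1 E2F match, 1 E-box and 1 TATAAA, the latter found in 12.6% of windows. The CHR letters TTTGAA and TTCGAA and the cAMP response element TGACGTCA were in none of the 7 windows (16.0%, 1.85% and 2.23% of all windows), which says only that these letters were not in these 300 bases. No matches of different motifs overlapped in these windows, and a match is a description of the letters and not a bound site.

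The level of a member was compared between the lists after centring, because the fold enrichment of all 9261 protein-coding promoters marked in both lines was 1.25 times higher in Scid.adh.2C2 at the median (0.32 on the log2 scale). Relative to this shift, 6 of 9 members had the higher level in Scid.adh.2C2 and 3 in 230-238, and the median difference was 0.09 (log2, Scid.adh.2C2 minus 230-238). By construction, the centring places as many of all promoters on one side as on the other. A difference of at least 1.5-fold was seen at *Ccne2*, higher in Scid.adh.2C2 by 0.75 (1.68-fold), and at *Ccnd1* and *Ccne1*, higher in 230-238 by 1.79-fold (-0.84) and 1.53-fold (-0.61). This made 1 of 9 members in the first direction, beside 9.29% of all promoters, and 2 of 9 in the other, beside 12.1%. The other 6 members lay between -0.25 at *Ccnd3* and 0.28 at *Cdk2*, and the middle of all promoters lay between -0.30 and 0.28. Without centring no member was 1.5-fold higher in 230-238, with -0.52 at *Ccnd1* and -0.30 at *Ccne1*. With the −log10 q in place of the fold enrichment, *Ccne2* (0.29) and *Ccne1* (-0.28) fell below 1.5-fold and *Ccnd1* (-0.63) did not.

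With peaks joined across up to 1000 bp, all 9 members marked in both lines had the wider domain in 230-238, as had 75.5% of all promoters marked in both. The median log2 difference of the members was -0.43, a ratio of 1.35, whereas it was -0.17 over all promoters. A ratio of at least 1.5 was reached by 2 of 9, *Ccnd3* (2.10) and *Ccne2* (1.93), beside 17.0% of all promoters. No member was wider in Scid.adh.2C2 by that ratio, against 3.06% of all. The other 7 members had ratios from 1.17 at *Cdk4* and *Ccna2* to 1.38 at *Ccne1*. The direction depended on the joining at a pair of members, since across gaps of up to 3000 bp *Ccnb1* (log2 difference 0.66) and *Cdk4* (0.21) had the wider domain in Scid.adh.2C2. The list of 230-238 also held more peaks than that of Scid.adh.2C2 (19604 against 15513), and the part of this in the widths was not tested.

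**Figure D4:**
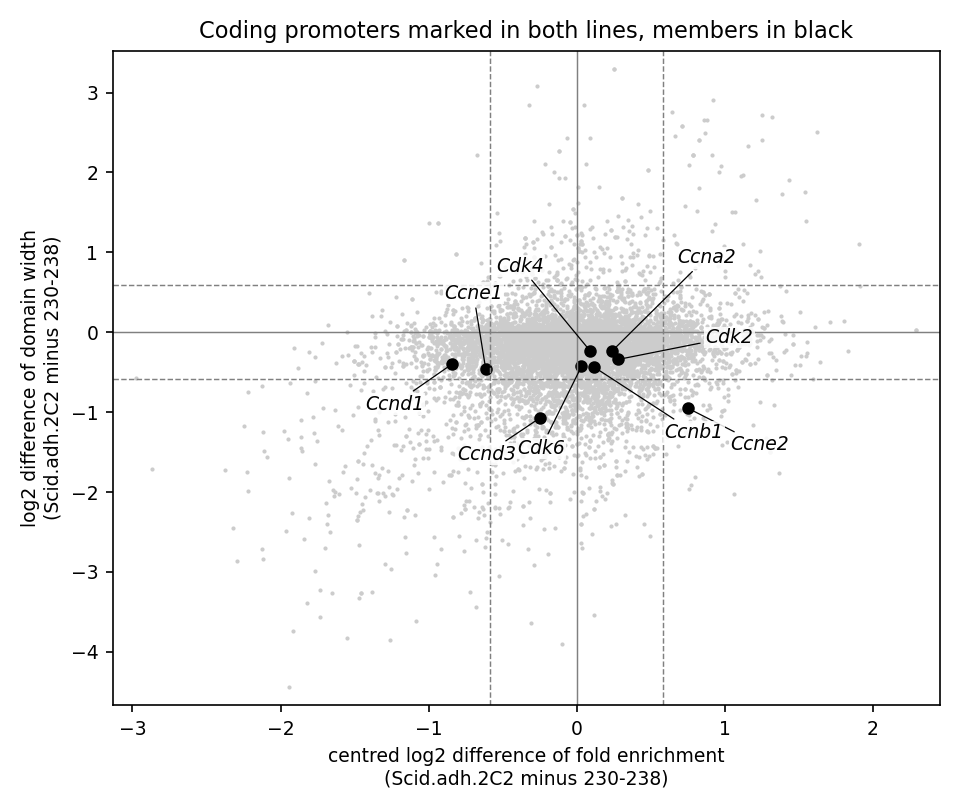
Centred log2 difference of the fold enrichment (horizontal) against the log2 difference of the domain width (vertical), both as Scid.adh.2C2 minus 230-238, for the 9261 protein-coding promoters marked in both lines (gray points) and the 9 members among them (black). Dashed lines mark 1.5-fold, which *Ccnd1* and *Ccne1* pass to the left, *Ccne2* to the right and *Ccnd3* and *Ccne2* downward.

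Peaks around the members were mostly shared. Within 100 kb of the 10 genes Scid.adh.2C2 had 65 peaks, of which 8 (12.3%) had no overlapping peak in 230-238, against 25.6% of all its peaks. In 230-238 there were 79 peaks, 21 (26.6%) without a partner, against 39.3% of all its peaks. The shares over all peaks were not matched for the proportion of peaks at promoters. Of the 21 peaks of 230-238 without a partner, 5 lay around *Ccnd2*, 5 around *Cdk2*, 4 inside *Cdk6* and 3 around *Ccnd3*. Inside the genes and outside their promoters, Scid.adh.2C2 had 2 peaks, both in *Ccnd3*, and 230-238 had 7, of which 3 were in *Ccnd3* and 4 in *Cdk6*. Of the promoter peaks of the members, 16 of 16 in Scid.adh.2C2 and 17 of 19 in 230-238 overlapped a peak of the other line. The same share over all promoter peaks was not computed. Among all protein-coding genes, 9980 were marked in Scid.adh.2C2, 10570 in 230-238 and 9261 in both, so that a mark in both lines was common at promoters in general. Of the 74 annotated TSSs of the members, 53 were under a promoter peak in Scid.adh.2C2 and 60 in 230-238, and the share over all annotated TSSs was not computed.

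The promoters most like a D-type cyclin were sought by the distance over 4 percentiles, level and width in each line, among all promoters marked in both. For *Ccnd1* these were *Smc6* and *Gen1*, which share a promoter with the same peaks and lay 5.72 percentile points away, and *Arid1b* (7.04). *Smc6* was listed at 19.3-fold with 4073 bp in Scid.adh.2C2 and at 25.9-fold with 5460 bp in 230-238. For *Ccnd3* they were *Ptpn6* (4.27), *Fhl3* (7.41) and *Klhl42* (7.63). The values of *Ccnd3* used for this were not those of a single promoter. Its level in Scid.adh.2C2 was that of the peak before the gene, shared with *Taf8*, and its width was that of the internal domain. *Ptpn6* was listed at 30.5-fold with 2512 bp and at 28.2-fold with 5278 bp.

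The genes that work with these cyclins and kinases were followed as 8 lists of 87 genes in all. Of these, 77 were marked in both lines (background 42.2%), 2 in Scid.adh.2C2 only (3.28%), 3 in 230-238 only (5.96%) and 5 in neither. Of the 77, 8 were 1.5-fold higher in Scid.adh.2C2 (background 9.29%) and 8 in 230-238 (12.1%), and the median centred log2 level difference was -0.02. Domains were 1.5-fold wider at 2 in Scid.adh.2C2 (background 3.06%) and at 10 in 230-238 (17.0%), with a median log2 difference of -0.18, close to the -0.17 of all promoters. The median level differences of the 8 lists ran from -0.23 to 0.24, and their median width differences from -1.30 to -0.04.

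The lowest median width difference, -1.30, was that of the inhibitors of the CDKs. Of 7 genes, 4 were marked in both lines (background 42.2%) and *Cdkn1c*, *Cdkn2a* and *Cdkn2b* in neither. *Cdkn1b*, which encodes the inhibitor p27, had the highest level of the list in Scid.adh.2C2 at 35.7-fold, and was listed at 22.8-fold in 230-238. Its domain was 3025 bp in Scid.adh.2C2 and 14741 bp in 230-238, made of 4 peaks that reached no other coding promoter. *Cdkn2d*, the gene of p19 of the INK4 family, had the highest level in 230-238 at 24.4-fold, with domains of 2407 bp and 5805 bp that include the promoter of *Kri1*. *Cdkn2c*, the gene of p18, which is named here for its width after the values were seen, had 6154 bp and 15419 bp. *Cdkn1a*, which encodes p21, had 2476 bp and 2823 bp. The centred level differences of the 4 genes lay between 0.01 and 0.33, so that 3 of 4 domains were at least 1.5-fold wider in 230-238 (background 17.0%) and no level differed by 1.5-fold. Part of these widths came from the joining of peaks. The widest single peak was 3025 bp against 5392 bp at *Cdkn1b*, 1134 bp against 2966 bp at *Cdkn2d* and 6154 bp against 9068 bp at *Cdkn2c*, where it stayed below 1.5-fold. Around *Cdkn2a* and *Cdkn2b*, which encode the inhibitors p16, p19ARF and p15, the nearest peaks were 143236 bp and 172083 bp from a TSS in Scid.adh.2C2 and 118673 bp and 147520 bp in 230-238, and 1 of 22 protein-coding neighbors of *Cdkn2a* within 500 kb was marked in each line.

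Upstream of the D-type cyclins, 9 of 11 genes were marked in both lines (background 42.2%). The others were *Myc* and *Mycn*, activators of cell growth, marked in 230-238 only (background 5.96%). They were listed at 31.9-fold with a domain of 6600 bp and at 25.0-fold with 6907 bp. In Scid.adh.2C2 the nearest peak was 50099 bp from a *Myc* start and 305998 bp from a *Mycn* start. *Foxo3*, a factor that restrains the cycle, had the highest level of this list in Scid.adh.2C2 (36.0-fold) and *Ikzf1*, a lymphoid factor, in 230-238 (33.1-fold). Of the 9, 2 had domains at least 1.5-fold wider in Scid.adh.2C2 (background 3.06%). These were *Notch1*, with 5174 bp against 3043 bp, and *Il7r*, with 4509 bp against 2634 bp. Another 2 were wider in 230-238 by that ratio (background 17.0%), *Foxo1*, with 8603 bp against 3767 bp, and *Foxo3*, with 9482 bp against 5221 bp. *Notch1*, *Il7r* and *Foxo1* were chosen for their widths after the values were seen.

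**Figure D5:**
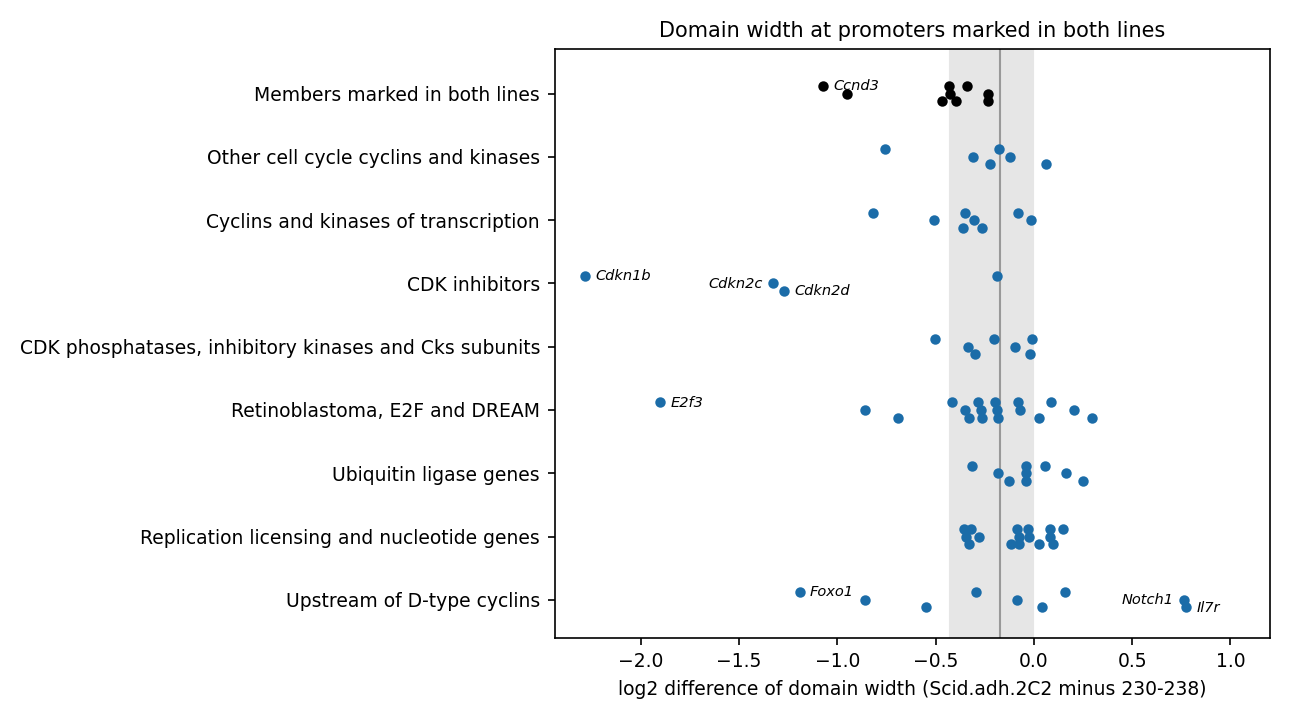
Log2 difference of domain width (Scid.adh.2C2 minus 230-238) for each gene marked in both lines, by list, with the members in the top row in black. The gray band spans the quartiles of all promoters marked in both lines (-0.42 to -0.00) and the gray line their median (-0.17), and 3 of the 4 CDK inhibitors lie at -1.27 or below.

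Among the 19 genes of the retinoblastoma, E2F and DREAM group, which controls the E-type and later cyclins, 18 were marked in both lines (background 42.2%). *E2f6*, a repressor, was marked in Scid.adh.2C2 only (31.3-fold, background 3.28%), and *E2f2* had the highest level in both (43.3-fold and 35.2-fold). Domains were at least 1.5-fold wider in 230-238 at 3 of the 18 (background 17.0%) and in Scid.adh.2C2 at 0 (background 3.06%). Among the former, *E2f3*, named here for its width after the values were seen, had 1280 bp in Scid.adh.2C2 and 4786 bp in 230-238. Of the 18 genes for replication licensing and nucleotide synthesis, 16 were marked in both (background 42.2%). *Cdc45*, part of the replicative helicase, was marked in Scid.adh.2C2 only (31.4-fold, background 3.28%). *Orc6*, of the origin recognition complex, was marked in 230-238 only (25.8-fold, background 5.96%). *Tk1* had the highest level of that list in Scid.adh.2C2 (38.1-fold) and *Orc1* in 230-238 (31.8-fold). All 7 CDK phosphatases, inhibitory kinases and Cks subunits were marked in both lines (background 42.2%). The highest were *Cks2* in Scid.adh.2C2, with 36.8-fold against 14.7-fold in 230-238, and *Cdc25a*, a phosphatase that activates CDK2, in 230-238, with 30.0-fold against 22.1-fold. *Cks1b*, named here after the values were seen, went the other way from *Cks2*, with 15.1-fold in Scid.adh.2C2 and 25.6-fold in 230-238. After centring, 2 of the 7 were at least 1.5-fold higher in Scid.adh.2C2 (background 9.29%) and 2 in 230-238 (background 12.1%).

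A list of 10 ubiquitin ligase genes held subunits and activators of the ligases that degrade cyclins and inhibitors, the conjugating enzyme *Ube2c* and *Fbxo5*, an inhibitor of the anaphase-promoting complex. Of these, 9 were marked in both lines (background 42.2%). The highest levels were at *Fbxw7*, which targets cyclin E, in Scid.adh.2C2 (38.7-fold) and at *Ube2c* in 230-238 (25.9-fold). *Skp2* was marked in neither, and the nearest peak was 307573 bp and 371687 bp from a start. Of the 7 other cyclins and kinases of the cell cycle, 6 were marked in both (background 42.2%) and *Ccna1*, a cyclin of germ cells, in neither. *Ccnh* had the highest level there in Scid.adh.2C2 (35.8-fold) and *Ccnf* in 230-238 (27.4-fold). All 8 cyclins and kinases of transcription were marked in both lines (background 42.2%), led by *Ccnk* in Scid.adh.2C2 (41.1-fold) and *Ccnt1* in 230-238 (29.9-fold).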

How the data were processed

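H3K4me3 ChIP-seq of Scid.adh.2C2 and 230-238 was performed with 2 ChIP libraries and 1 input library per line. Per the submitters' processing notes, the authors used Trim Galore 0.6.7, Bowtie2 2.4.4 and MACS2 2.2.7.1 with mm10 (GRCm38), and per the methods of the study peaks passed a q-value and an IDR of 0.05 in narrow mode. From each deposited list, which combines 2 replicates, the peak position and 4 kinds of value were used. These were the fold enrichment (a ratio over local background set by the authors' peak caller), the −log10 q, the IDR score that the authors deposited, and the summit offset in bp. The deposited −log10 p values were not used, since they rank peaks as the −log10 q values do. Per the labels, libraries were made with either of 2 kits, which are not tied to single libraries. Depth is unknown, and values were called separately for each list.

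TSSs were taken from GENCODE release M21 (GRCm38). A peak marked a gene when it overlapped the 2500 bp either side of a TSS by at least 1 bp. Levels were compared as log2 ratios less the median of protein-coding promoters marked in both lines. The members and lists were chosen with earlier results of these data known. The genes named are all members, and from each list those marked in 1 line only and the highest in each line, with other genes named as such. Promoter windows are RefSeq sequences. The functions were tested on simulated peaks. Python 3.11.15, numpy 2.4.6, pandas 2.3.3 and matplotlib 3.10.9 were used. The alternatives changed the window, the TSSs, the peaks used, the centring, the level measure and the joining of peaks. The input libraries entered only through the peak calling.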

Additional observations from a re-analysis of the deposited data

How the results depend on the processing

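No paired analysis was possible because each deposited list combines both replicates of a line, and for the same reason no replicate could be left out. The members marked were 9 in Scid.adh.2C2, 10 in 230-238 and 9 in both under each of the 8 alternatives tried (windows of 1000 bp and 5000 bp, the most upstream TSS, basic TSSs, peaks of at least 10-fold, IDR score 1000, equal numbers of peaks, and the summit in the window). Without centring, 2 members (*Ccne2* and *Cdk2*) were 1.5-fold higher in Scid.adh.2C2 and 0 in 230-238. With the −log10 q in place of the fold enrichment, 0 were higher in Scid.adh.2C2 and 1 (*Ccnd1*) in 230-238. The cause of the latter was not tested, and the former is the shift of 0.32 itself. Joining peaks across 3000 bp made 1 member (*Ccnb1*, log2 difference 0.66) 1.5-fold wider in Scid.adh.2C2, and turned *Cdk4* (0.21) without a call. With single peaks 3 members, *Ccne1* added, were 1.5-fold wider in 230-238, and with gaps within 500 bp of a TSS 6 members, *Ccnd2* added, had one there. No other count moved by over 1.5 times under these alternatives, and no called difference changed sign. Of the values of single members under these alternatives, 75 stayed on their side of 1.5-fold and 7 did not. A gene without a peak is one for which the list used here held none. Whether the lists used here hold every called peak was not tested. This bears on *Ccnd2*, *Myc*, *Mycn* and *Orc6* in Scid.adh.2C2 and on *E2f6* and *Cdc45* in 230-238. It bears also on genes far from any listed peak in both lines, such as *Skp2*.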
